A study of Bos taurus with 40 samples.

Results

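Compensatory growth was set against continuous ad libitum feeding by comparing hepatic RNAseq of 10 RES and 10 ADLIB Holstein Friesian bulls at day 55 of Period 2, which are 20 of the 40 samples of the series. The animals were taken by their labels alone, as the liver samples titled Restricted and Control at the second time point. RES bulls had been fed a restricted allowance of the common concentrate and grass silage diet for 125 days, to a target gain of 0.6 kg per day, and had then received the same diet ad libitum for 55 days. ADLIB bulls had ad libitum access to that diet in both periods. When sampled, both groups were therefore offered the same diet ad libitum, and they differed in their earlier feeding. The paper reports that RES bulls of the trial ate more per unit of body weight during re-alimentation and gained weight faster. It found no difference from ADLIB in liver weight at the end of Period 2, or in feed intake not scaled to body weight. It also reports that RES bulls were still lighter at that time and had less fat cover. Earlier feeding was therefore not the only difference between the groups at sampling. All were males of a single breed, each library came from 1 bull, and the bulls sequenced were chosen by the authors as representative of their group with RNA of high quality, so the spread between them may be narrower than in the whole group. The other 20 samples, RES and ADLIB at the end of the restriction in Period 1, are used only where a Period 2 value is set beside them.

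An animal that has been underfed and is then fed to appetite can gain weight faster than one never held back, and partly catches up with it, which is what compensatory growth means. The liver handles absorbed nutrients, makes glucose and lipids, breaks down amino acids and releases insulin-like growth factor 1 into the blood, and it loses and regains mass with feed intake. The question put by this comparison is which hepatic transcripts still differed when the bulls had been back on full feed for some weeks. In whole liver, fewer cells of a type and less RNA per cell cannot be told apart. Genes are given as Ensembl identifiers, none of which could be paired with a gene symbol here. Therefore the hepatocyte and other cell type markers could not be checked, and pathway members could not be counted.

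The authors deposited read counts for 24616 Ensembl genes. Reads counted on genes lay between 8656866 and 13282110 in the 10 RES bulls (median 10386922.5) and between 9400253 and 15520237 in the 10 ADLIB bulls (median 11220047), a difference within the spread between animals (two-sided permutation test, p = 0.260). The percentage of reads that fell on genes averaged 77.7% ± 1.55 for the RES bulls and 76.6% ± 1.33 for the ADLIB bulls (SD, n = 10; permutation test, p = 0.0969). The number of genes with at least 1 read averaged 15589.8 ± 395 for RES and 15589.1 ± 204 for ADLIB (SD, n = 10; permutation test, p = 0.997). The 10 most abundant genes took 26.2% ± 1.82 of reads for RES and 26.0% ± 2.12 for ADLIB (SD, n = 10; permutation test, p = 0.837). With the normalisation factors and the distances between animals given below, 6 such measures were tested, and the Benjamini-Hochberg adjusted values ranged from 0.570 to 0.997.

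By day 55 of Period 2 the main test used here called no gene different between RES and ADLIB bulls. The paper, which also used edgeR, does report a small set of differentially expressed genes for this comparison, in both directions. Of the 12202 genes that had 4 or more reads in each bull, 0 passed edgeR's quasi-likelihood test at a Benjamini-Hochberg FDR under 0.05 with a fold change of at least 1.25, which is 0% of the genes tested. The lowest unadjusted p-value was 3.14e-05 and the lowest adjusted value was 0.190, shared by 25 genes. An unadjusted p under 0.05 was reached by 1565 genes, or 12.8%. Of these, 869 were higher in RES (7.12% of the genes tested) and 696 were lower (5.7%). At an unadjusted p under 0.001 there were 60 genes, 28 higher and 32 lower. limma voom with sample weights also called 0 genes. By contrast, edgeR's exact test called 53 genes at the same thresholds (0.434%) and DESeq2 called 52 (0.426%). The number of calls in Period 2 therefore depended on the test. The same quasi-likelihood test on the same number of bulls in Period 1 called 1243 of 12047 genes (10.3%), 613 of them higher in RES and 630 lower. That count was 394 when the share of reads lying on genes was entered as a covariate.

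The fitted differences in Period 2 were small for most genes. The median absolute log2 fold change was 0.12, a 1.09-fold difference, against 0.17 in Period 1. For 90% of genes the estimate was within 1.28-fold and for 99% within 1.75-fold. Estimates beyond 1.25-fold in either direction were found for 1571 genes (12.9%, against 22.7% in Period 1), beyond 1.5-fold for 350 genes (2.87%) and beyond 2-fold for 64 genes (0.525%, against 1.21% in Period 1). The largest absolute log2 fold change, taken without regard to direction, was 2.93, a 7.63-fold difference. Among the genes at an unadjusted p under 0.05 the median absolute log2 fold change was 0.35 and the smallest was 0.13, so no gene with a smaller estimate reached that level with 10 bulls a group. In units of the spread between animals, the difference between group means was beyond 1 pooled SD for 1097 genes (8.99%, 550 higher and 547 lower in RES), against 24.5% of genes in Period 1. Its median was 0.409 SD and its maximum 2.48 SD.

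**Figure D1:**
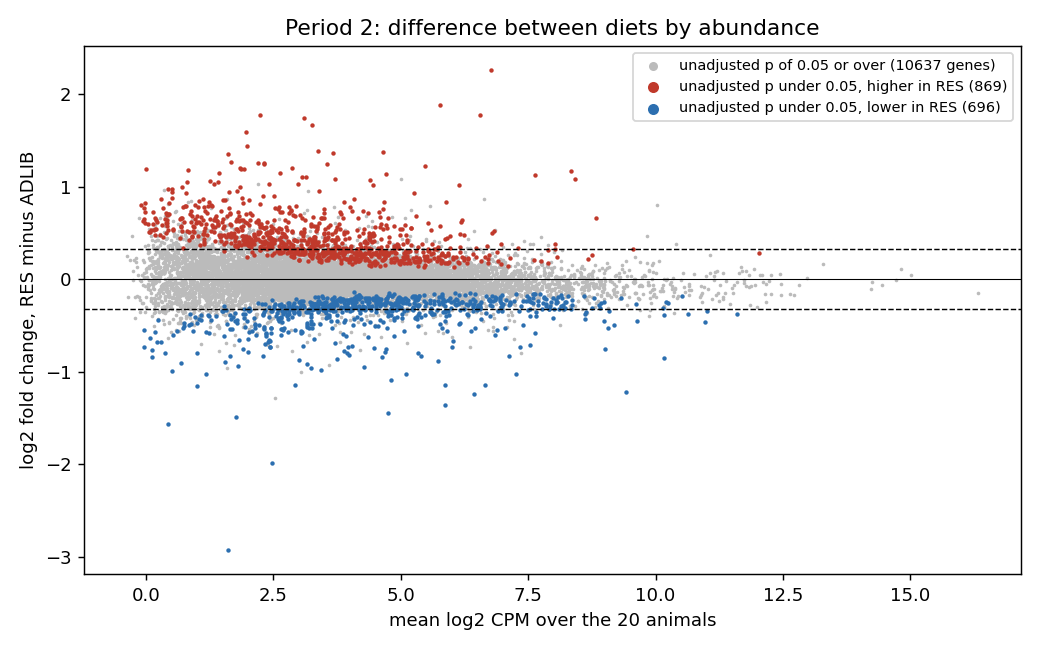
Log2 fold change of RES over ADLIB in Period 2 (y axis) for each of the 12202 genes tested, against its mean log2 CPM (x axis), with genes at an unadjusted p under 0.05 coloured. Most points lie close to 0 (median absolute log2 fold change 0.12), the cloud widens to the left where counts are low, and coloured points on the right, at a mean log2 CPM of 7 and over, are mostly below 0 (97 lower and 18 higher).

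The 95% interval of each log2 fold change shows how large a difference these 20 bulls leave possible for that gene. These intervals are for single genes and are not adjusted for the number of genes. The whole interval lay within 1.25-fold in both directions for 3691 genes (30.2%), within 1.5-fold for 9225 genes (75.6%) and within 2-fold for 11570 genes (94.8%). In Period 1 the corresponding percentages were 24.1, 68.1 and 93.2. For the other 632 genes of Period 2 the interval reached past 2-fold in at least 1 direction. At the other end, 69 genes had an interval wholly beyond 1.25-fold, 45 of them higher and 24 lower in RES, compared with 427 in Period 1. The interval was wholly beyond 1.5-fold for 11 genes (7 higher and 4 lower) and wholly beyond 2-fold for 2 genes, both lower.

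The size limits depended on transcript abundance. Among the 893 genes with a mean log2 CPM under 1, with a median of 15.95 reads per animal, the median half-width of the interval was 0.49 on the log2 scale (1.41-fold), and 0% of intervals lay within 1.25-fold. Among the 3422 genes from 1 to 3, the median half-width was 0.35 and 8.71% of intervals lay within 1.25-fold. The 4719 genes from 3 to 5 had a median half-width of 0.24, with 39.4% within 1.25-fold. The narrowest intervals were those of the 2338 genes from 5 to 7, with a median half-width of 0.21 (1.16-fold) and 50.6% within 1.25-fold. The 830 genes at 7 and over, with a median of 3019 reads per animal, were no narrower, at 0.23 and 42.2%. Read counting alone would give an SD of 0.36 on the log2 scale at the median depth of the lowest tier and 0.03 at that of the highest, whereas the median SD between animals of a group was 0.48 and 0.26. In the upper tiers the spread between animals was therefore several times larger than that of counting.

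**Figure D2:**
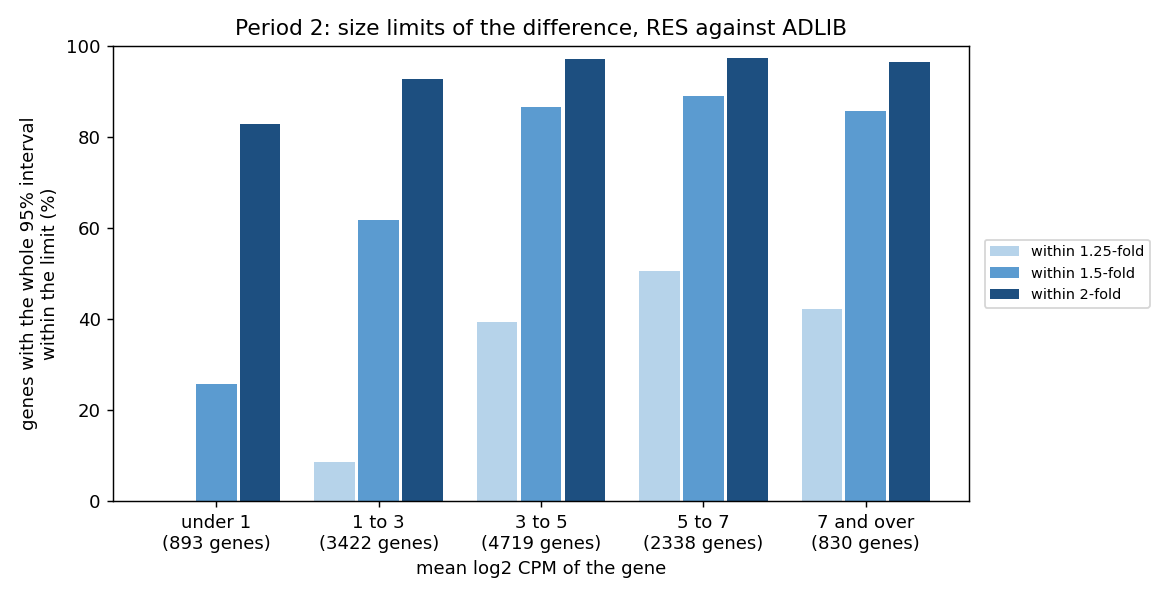
Percentage of genes in each tier of mean log2 CPM (x axis) whose whole 95% interval for RES against ADLIB in Period 2 lay within 1.25-fold, 1.5-fold and 2-fold (bars, y axis from 0). The 1.25-fold bars go from 0% in the tier under 1 to 50.6% in the tier from 5 to 7, while the 2-fold bars are between 82.9% and 97.3% in all tiers.

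The direction of the residual differences also moved with abundance. In the tier under 1, 77 genes were higher and 25 lower in RES at an unadjusted p under 0.05, and in the tier from 1 to 3 the counts were 303 and 133. From 3 to 5 they were 346 and 275, from 5 to 7 they were 125 and 166, and at 7 and over 18 were higher and 97 lower. The lower counts of the 2 most abundant tiers exceeded the higher counts in all 20 fits that left out 1 bull. At 7 and over this also held when reads were scaled only by the total on genes (40 higher and 65 lower), but from 5 to 7 that scaling turned it to 215 higher and 97 lower. The same scaling put 74.9% of all genes at an unadjusted p under 0.05 on the higher side (1170 higher and 393 lower), compared with 55.5% under TMM, and moved the median log2 fold change of all genes from 0.01 to 0.06. The median log2 fold change was 0.08 in the tier under 1 and −0.07 at 7 and over.

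For most genes the SD between bulls of the same feeding history was larger than the difference between the group means. That difference was beyond 1 pooled SD for 8.99% of genes. The median over genes of the SD of log2 CPM between animals was 0.287 in RES and 0.284 in ADLIB. The pooled SD had a median of 0.293, and 90% of genes lay between 0.154 and 0.652. The biological coefficient of variation, the spread between animals that remains when counting error is taken off, had a median of 19.3% and for 90% of genes lay between 12.9 and 41.0%. The median in Period 1 was 18.6%. Neither diet was generally the more variable. The SD was higher in RES for 6314 genes (51.7%) and in ADLIB for 5888, and the median ratio was 1.02. An SD at least 2 times that of the other group was found for 454 genes in RES and for 301 in ADLIB. Genes that varied in one group tended to vary in the other, with a Spearman correlation of the SD of 0.708 and a Pearson correlation of 0.732 across the 12202 genes, which share libraries and counting error and are not independent replicates. A pooled SD above 1 on the log2 scale was found for 99 genes (0.811%), of which 3 were in the tier under 1.

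Whole profiles gave the same picture of overlap. The root mean square distance of a bull from the mean of the other 9 bulls of its group, over all genes tested, on the log2 scale was 0.407 ± 0.0431 for RES and 0.390 ± 0.0428 for ADLIB (SD, n = 10; two-sided permutation test, p = 0.380). It lay between 0.351 and 0.471 in RES and between 0.332 and 0.467 in ADLIB, so no bull stood far from its group. Between single bulls the median distance was 0.536 over 45 pairs within RES, 0.518 over 45 pairs within ADLIB and 0.539 over 100 pairs of 1 RES and 1 ADLIB bull. Pairs of unlike history were thus about as far apart as pairs of like history, with the pairs sharing animals and therefore given no test. The nearest bull was of its own group for 4 RES and 9 ADLIB bulls, and of the other group for 6 RES and 1 ADLIB bull. The first principal component held 17.0% of the variance, and on it RES ran from −17.8 to 32.0 (median 8.86) and ADLIB from −39.5 to 9.65 (median −3.37).

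**Figure D3:**
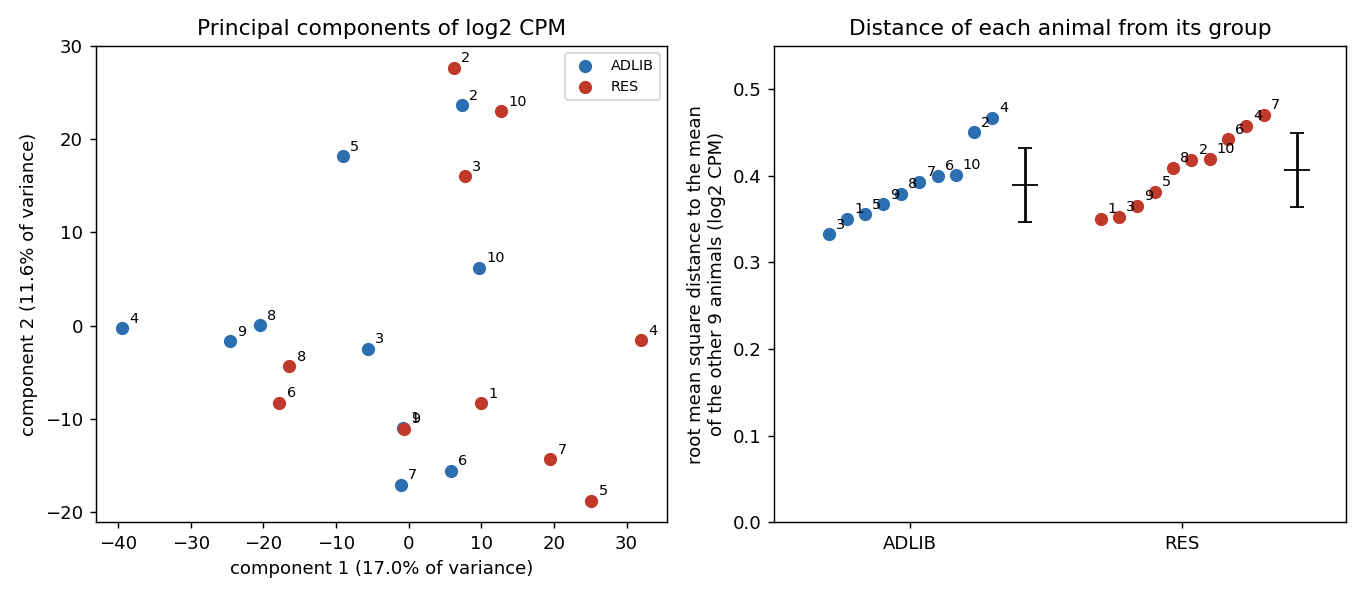
Left, the 20 bulls of Period 2 on the first 2 principal components of log2 CPM (17.0% and 11.6% of the variance), numbered by replicate. Right, the root mean square distance of each bull from the other 9 of its group (log2 CPM), with mean and SD as lines, where RES (0.407 ± 0.0431) and ADLIB (0.390 ± 0.0428) overlap throughout.

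Gene by gene, the groups were never separate among the genes with enough reads in each bull to be tested. Genes left out by that requirement, including any gene almost without reads in either group, were not examined in this way. For 0 of the 12202 genes (0%) did all 10 RES bulls lie beyond all 10 ADLIB bulls in log2 CPM, whereas this was so for 74 genes in Period 1 (0.614%, 36 higher and 38 lower in RES). All 10 RES bulls lay on one side of the ADLIB median for 366 genes in Period 2 (3%), 151 above and 215 below, compared with 1222 in Period 1 (10.1%). The share that chance alone would give was not worked out, so the Period 2 share is not read as a diet effect.

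The 4 genes with the smallest p-values at a mean log2 CPM of at least 1, 2 in each direction, show what the residual differences looked like in single bulls. They were picked by their p-value among 12202 genes, so their values describe the extremes of the comparison. The tests of the difference between periods given for them hold the same Period 2 difference and are not independent of that choice. In RES, ENSBTAG00000022294 had a normalised CPM of 2.05 in the lowest bull, 7.50 at the median and 10.9 in the highest. In ADLIB it had 1.13, 2.31 and 4.05. Thus 8 RES bulls lay above every ADLIB bull, while the other two, RES 3 and RES 10, were within the ADLIB range. The log2 fold change was 1.44 (SE 0.28, n = 10 per group), or 2.71-fold with a 95% interval from 1.82 to 4.04 (unadjusted p = 3.14e-05, edgeR quasi-likelihood adjusted p = 0.190). Its biological coefficient of variation was 40.2%, about double the median of all genes. Without RES 3 its adjusted p was 0.0251, which made it the single gene called in any of the 20 fits that left out 1 bull. In Period 1 the same gene averaged 5.49 ± 2.92 in RES and 6.69 ± 4.89 in ADLIB (SD, n = 10), a log2 fold change of −0.28 with an adjusted p of 0.711. The difference between the diet effects of the 2 periods was 1.70 on the log2 scale (edgeR adjusted p = 0.0336).

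ENSBTAG00000025485 had a normalised CPM of 7.59, 19.0 and 30.0 in the lowest, median and highest RES bull. The ADLIB values were 2.44, 8.41 and 11.8, with 8 RES bulls above every ADLIB bull and RES 5 and RES 6 within their range. The log2 fold change was 1.25 (SE 0.26, 95% interval 0.72 to 1.78), or 2.38-fold (edgeR adjusted p = 0.190). In Period 1 the RES mean of 24.5 ± 20.1 and the ADLIB mean of 14.4 ± 7.68 (SD, n = 10) differed in the same direction, by 0.76 with an adjusted p of 0.270. The test of the difference between the periods gave 0.47 with an adjusted p of 0.623.

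Of the genes lower in RES, ENSBTAG00000006035 had a normalised CPM of 0.551, 1.27 and 2.08 in the lowest, median and highest RES bull and of 1.69, 2.57 and 5.00 in ADLIB. All 10 RES bulls were below the ADLIB median and 8 were below every ADLIB bull, although the gene rested on only 5 to 55 reads per animal. The log2 fold change was −1.15 (SE 0.23, 95% interval −1.63 to −0.68, edgeR adjusted p = 0.190). This gene was also lower in RES in Period 1, by a log2 fold change of −1.42 that passed the test there (edgeR adjusted p = 0.0249). The diet effects of the 2 periods were not shown to differ (0.24 on the log2 scale, adjusted p = 0.802).

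ENSBTAG00000047946 was the steadiest of the 4, with a biological coefficient of variation of 14.7%. Its normalised CPM was 22.3, 27.2 and 35.8 in the lowest, median and highest RES bull and 30.6, 37.5 and 46.3 in ADLIB. All 10 RES bulls were below the ADLIB median and 7 were below every ADLIB bull. The log2 fold change was −0.42 (SE 0.09, 95% interval −0.61 to −0.24), or 1.34-fold lower (edgeR adjusted p = 0.190). In Period 1 the gene was higher in RES, at 56.2 ± 9.52 against 36.7 ± 3.34 in ADLIB (SD, n = 10), a log2 fold change of 0.61 that passed the test (edgeR adjusted p = 1.79e-04). The diet effects of the 2 periods differed by −1.05 on the log2 scale (edgeR adjusted p = 1.90e-06).

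**Figure D4:**
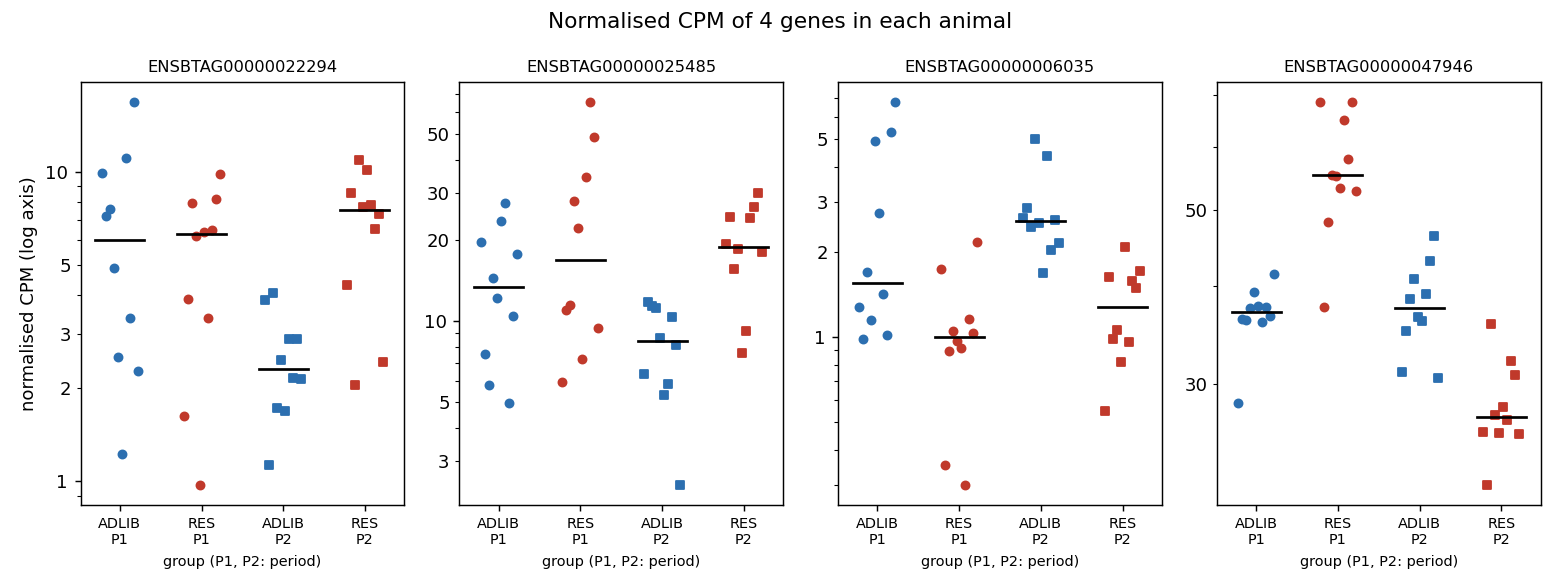
Normalised CPM (log axis) of the 4 genes in each bull of the 4 groups, with circles for Period 1, squares for Period 2, and bars for the group median. CPM was scaled within each period. In Period 2 most RES bulls lie above ADLIB in the panels of ENSBTAG00000022294 and ENSBTAG00000025485 and below it in the other panels, and 2 or 3 RES bulls reach into the ADLIB range in each panel.

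The library names open with a number from 1 to 4, whose meaning the labels do not give, and this number was spread unevenly over the groups, with 1, 5, 3 and 1 ADLIB and 3, 2, 2 and 3 RES bulls. Within each of the 4 numbers the difference in mean log2 CPM kept its direction for all 4 genes. It ranged from 0.13 to 2.08 for ENSBTAG00000022294, from 0.35 to 3.23 for ENSBTAG00000025485, from −1.39 to −0.39 for ENSBTAG00000006035 and from −0.63 to −0.05 for ENSBTAG00000047946. Some of these values rest on 1 ADLIB bull. The 4 genes were picked for their difference over these same bulls, so the kept direction is no independent check.

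edgeR's exact test and DESeq2 shared 42 genes, which is 79.2% of the first list and 80.8% of the second, and the 4 genes above were in both. The 53 genes of the exact test, 29 higher and 24 lower in RES, had a median absolute log2 fold change of 0.90 and a median biological coefficient of variation of 31.9%, compared with 19.3% for all genes, although single genes such as ENSBTAG00000047946 (14.7%) lay below that median. Their unadjusted p in the quasi-likelihood test ran from 3.14e-05 to 0.00605. All 10 RES bulls were on one side of the ADLIB median for 24 of the 53, against 3% of all genes tested, in a list chosen on the same contrast. Only 11 of the 53 were called in all 20 fits that left out 1 bull, and 37 were lost in 5 or more. The count itself moved from 17 without RES 5 to 120 without RES 6. It was also moved by more than 1.5 times by leaving out ADLIB 2 (31 calls), ADLIB 3 (20), ADLIB 4 (23), ADLIB 5 (25), ADLIB 7 (24), ADLIB 8 (35), ADLIB 9 (22), ADLIB 10 (80), RES 4 (23) or RES 7 (24).

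Genes that had been higher in RES at the end of restriction tended to be slightly lower in RES in Period 2. Of the 613 genes called higher in Period 1, 605 were tested in Period 2, where their median log2 fold change was −0.11 against 0.51 in Period 1. They were below ADLIB in 423 cases (69.9%) and above it in 182, while 47.9% of all genes tested were below. At an unadjusted p under 0.05, 140 of the 605 were lower (23.1%, against 5.7% of all genes tested) and 31 were higher (5.12%, against 7.12%). None of them was called. The 630 genes called lower in Period 1 showed no shift of that size over all tiers together. Of these, 627 were tested, with a median log2 fold change of 0.02 against −0.56 in Period 1. In Period 2, 332 of them were above ADLIB and 295 below, with 35 higher (5.58%) and 19 lower (3.03%) at an unadjusted p under 0.05. They were more abundant than all genes tested (median of the mean log2 CPM 4.74 against 3.75). By tier, 2.15% of them were lower from 3 to 5 (5.83% of all genes), 2.91% from 5 to 7 (7.10%) and 5.61% at 7 and over (11.7%). The shares higher in these tiers were 9.01% (7.33% of all genes), 3.49% (5.35%) and 0.935% (2.17%).

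The share of the genes higher in Period 1 that were lower in RES in Period 2 went up with abundance, as it did for all genes tested. Of the genes higher in Period 1, those lower in RES in Period 2 at an unadjusted p under 0.05 numbered 1 of 30 in the tier under 1 (3.33%, against 2.80% of all genes in that tier) and 15 of 168 in the tier from 1 to 3 (8.93% against 3.89%). They numbered 41 of 196 from 3 to 5 (20.9% against 5.83%), 43 of 128 from 5 to 7 (33.6% against 7.10%) and 40 of 83 at 7 and over (48.2% against 11.7%). The count of 140 was 115 to 159 when single bulls were left out. It was 70 of 605 when the first number of the library name was a block (11.6%, against 3.56% of all genes in that fit), 86 with scaling by total reads on genes (14.2% against 3.22%) and 112 with the share of reads lying on genes entered as a covariate (18.5% against 6.23%). The interval lay within 1.25-fold for 21.5% of the genes higher in Period 1 and for 26.3% of those lower, compared with 30.2% of all genes, so most of them were not limited to that size.

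**Figure D5:**
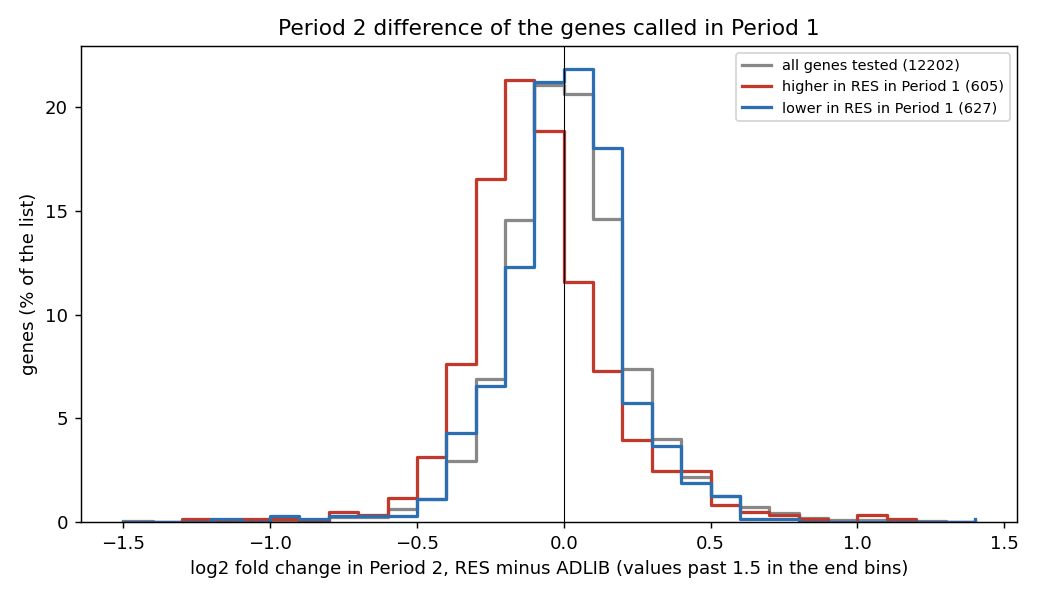
Distribution of the Period 2 log2 fold change of RES over ADLIB (x axis) for the 605 genes called higher and the 627 called lower in RES in Period 1, beside all 12202 genes tested (y axis, percentage of the genes in each set). The genes higher in Period 1 are shifted to the left (median −0.11), and those lower in Period 1 are centred close to 0 (median 0.02).

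The test of whether the diet effect differed between the periods was run on 11868 genes with at least 4 reads in all 40 animals. The difference passed at an edgeR quasi-likelihood FDR under 0.05 for 1121 genes (9.45%), 429 with a more positive effect in Period 2 and 692 with a more negative one. With the share of reads lying on genes as a covariate, 629 genes passed. Of the 1121, 486 also had an unadjusted p under 0.05 in Period 2, against 12.8% of all genes tested there. Of the 486, 146 were higher and 340 lower in RES, and 483 had the opposite sign in Period 1. In Period 1, 178 of the 486 were called, against 10.3% of all genes tested there. The contrast holds the differences of both periods, so these overlaps and opposite signs are partly built in. The labels describe biopsies of the same bulls in one place and bulls slaughtered in each period in another. In the paper, some bulls of each treatment were slaughtered after Period 1 and the rest after Period 2, with liver sampled after slaughter. The bulls of one period were therefore taken to be other bulls than those of the other. The comparison within Period 2 is between 20 different bulls in either case.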

How the data were processed

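The authors sequenced hepatic RNA of 40 bulls with single-end reads, which they aligned with TopHat to UMD 3.1 and counted per Ensembl gene with HTSeq. The authors deposited uniquely mapped read counts without normalisation. These counts were used here, and the deposited normalised values were not. Rows that name no gene were left out of library sizes. In Period 2, 73.4 to 80.6% of reads lay on genes. Samples were grouped by the labels, and each replicate is a separate animal.

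Genes that had 4 or more reads in each animal were scaled with TMM and tested in each period on its own animals, with no covariate, with edgeR 4.0.16 (robust quasi-likelihood) in R 4.3.3. Calls required an adjusted p (Benjamini-Hochberg) under 0.05 and a 1.25-fold or greater difference. SDs and distances used log2 CPM with a prior count of 2, and permutation tests used 100000 draws. edgeR's exact test, limma 3.58.1, DESeq2 1.42.0, other scalings, filters, blocks, covariates and fits without each animal were alternatives. Scripts were tested on simulated data.

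The genes printed were the 2 higher and 2 lower in RES with the smallest unadjusted p at a mean log2 CPM of at least 1. This fallback applied because 0 of the 24616 identifiers matched the reference table. For the same reason gene lists, cell type markers, sequences and checks of GC content or length were not run. The comparison, its tests and lists were chosen with earlier results of these data known. Within each group of Period 2, counts of any 2 bulls differed with a chi-square of at least 20.6 per degree of freedom. Pairs from different groups were not compared in this way.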

Additional observations from a re-analysis of the deposited data

Results flagged for a closer look

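In Period 2, 15520237 reads of ADLIB replicate 5 lay on genes, while the next deepest ADLIB bull had 12133068. It was far from the other 9 by Dixon's criterion, and it was the only such animal in 18 comparisons of animals within a group, where chance gives about 0.9. Leaving it out gave 0 calls.

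For 1121 genes the effect of diet was not the same in the 2 periods (edgeR quasi-likelihood FDR under 0.05), and for 629 with the share of reads lying on genes as a covariate. Among the 4 genes printed, the difference was 1.70 on the log2 scale for ENSBTAG00000022294 (adjusted p = 0.0336) and −1.05 for ENSBTAG00000047946 (adjusted p = 1.90e-06). The 4 genes were picked by their Period 2 p-value, which is part of this contrast, so these adjusted p-values are not independent of the choice.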

How the results depend on the processing

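The quasi-likelihood test kept 0 calls between RES and ADLIB in Period 2 with DESeq2's size factors, total reads, either other filter, either covariate and an FDR of 0.1 without a fold threshold, and limma voom also made 0. The count was 52 with DESeq2, 53 with the exact test, 1 when the first number of the library name was a block, 14 with all 40 animals in the fit (4 higher and 10 lower), and 0 to 1 when single bulls were left out. The titles number the animals of each group, but same-numbered RES and ADLIB bulls did not deviate together (mean correlation −0.0042 over 10 pairs, 4 of them over 0.1, and 1 RES and 1 ADLIB bull closest to its own number), so the numbers were not taken as a pairing. With the replicate block there were 0 calls and 1260 genes at an unadjusted p under 0.05. That count was 1226 to 2095 over the alternatives and 1216 to 1861 without single bulls. The share of those genes higher in RES was 55.5%, and it was 74.9% with total reads, 64.5% with the library name block and 47.2% with all 40 animals. The percentage of intervals within 1.25-fold was 19.2 without a filter on low counts and 13.1 with 99% intervals, and the percentage within 1.5-fold was 49.4 without the filter. Without single bulls these percentages were 26.3 to 31.6 and 72.8 to 75.8, and 93.9 to 95.5 within 2-fold. The difference in distance between groups was 0.00749 to 0.0267 and the median pooled SD 0.288 to 0.295 without single bulls. When the share of reads lying on genes was a covariate, the interaction called 629 genes in place of 1121 and Period 1 called 394 in place of 1243. The directions of the 4 genes printed held under all alternatives run. ENSBTAG00000047946 passed the FDR with all 40 animals (adjusted p = 0.0328), and all 4 passed it with DESeq2 and with the exact test. The counts by abundance tier, of Period 1 genes in Period 2 and of exact test calls, with their alternatives, were chosen after seeing the data. Alternatives for gene lists were not run. In the lowest abundance tier no interval lay within 1.25-fold, and there both the counting SD (0.36 on the log2 scale) and the biological coefficient of variation (27.3%) were the highest of the 5 tiers. Their separate parts in the width were not tested.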

Other observations

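The bull farthest from its group median for a gene was most often ADLIB 4, for 1236 of the 12202 genes (10.1%), followed by RES 7 for 1112 (9.11%), ADLIB 2 for 1070 (8.77%) and RES 6 for 884 (7.24%). It was least often ADLIB 3, for 271 genes (2.22%). Among the 500 genes with the highest pooled SD the order was different, with RES 4 farthest for 65 genes, RES 7 for 46 and ADLIB 2 for 45.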
